A study of Mus musculus with 8 samples.

Results

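Replication origin licensing and the MCM helicase were represented on the arrays by 26 probe sets of 10 genes, taken as all probe sets that the array annotation assigns to Mcm2 to Mcm7, Cdc6, Cdt1, Gmnn, or Dbf4 and to no other gene. They are a small set among the 45037 probe sets tested, of which 34945 carry a single gene name and cover 18193 genes. The samples were colonic epithelial cells of 4 SPF-Abx mice colonized with BTΔMAFF, a mutant of Bacteroides thetaiotaomicron (B. theta) that lacks the MAFF locus, and of 4 SPF-Abx mice colonized with wild-type B. theta, BTWT. All 8 mice were C57BL/6 males kept under specific pathogen-free conditions, received metronidazole and ciprofloxacin before colonization at 8 wk of age, and were sampled 4 wk later, at 12 wk. Antibiotics deplete a microbiota without making a mouse germ free, so both groups also carried other bacteria. Living EpCAM+ CD45- cells were sorted and hybridized to 1 Affymetrix mouse array per mouse. The arrays were made to learn how the colonic epithelium differs between hosts of B. theta with and without MAFF.

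A replication origin is licensed when the origin recognition complex, Cdc6, and Cdt1 place the ring-shaped MCM2-7 helicase on DNA in an inactive form. Geminin, encoded by Gmnn, binds Cdt1 and blocks further loading once S phase has begun, and the Cdc7 kinase with its regulatory subunit Dbf4 phosphorylates the loaded ring so that it can be turned into an active helicase. In the colon these genes are expressed mainly by the dividing cells of the lower crypt, and MCM proteins are used as markers of cells that are able to proliferate.

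All values were log2 values from which the median of the 8 arrays had been subtracted for each probe set, so 0 is the median mouse and no absolute level can be read. Differences are BTΔMAFF minus BTWT, each with its standard error from limma. Arrays BTWT 2 and BTΔMAFF 4 stood apart from the others along the first principal component (29.4% of the variance). The sort markers were read by their probe sets with the largest SD. The difference was -0.10 (standard error 0.23) for Epcam and 0.01 (standard error 0.03) for the CD45 gene Ptprc. Each had 1 of its 2 probe sets of that sign. Of 10 epithelial markers read in the same way, 2 were below 0, Epcam among them. As a relative measure of RNA quality, the Gapdh controls of the 3-prime end minus those of the 5-prime end ran between -0.18 and 0.17 in BTΔMAFF mice and between -0.25 and 0.02 in BTWT mice. The lowest were BTWT 2 at -0.25, BTWT 1 at -0.20, and BTΔMAFF 4 at -0.18. These controls are centred as well, so their values rank the arrays and give no ratio of the ends.

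The licensing and MCM probe sets were lower in BTΔMAFF mice more often than higher. Of the 26 probe sets, 23 had a difference below 0 and 3 had one above 0, with a median of -0.27 beside a median of -0.02 over all 45037. Probe sets of Dbf4, Cdt1, Mcm5, and Mcm6, 5 in all, were lower at an unadjusted p under 0.05, which is 19.2% of the 26, while 2.24% of all probe sets were lower and 2.86% higher by the same measure (5.10% in either direction). None of the 26 was higher at that threshold, and 21 did not pass it. The genes of this set were chosen with earlier results of these data known. The lower probe sets of Dbf4 and Mcm5 are also on the list of genes that the study chose on these same arrays. Shares of the 26 set beside those of all probe sets, here and below, are therefore descriptions and no independent test. In a two-sided exact permutation test over the 70 ways to split the 8 mice into groups of 4, no p can be below 0.0286. That smallest p is reached only when the groups do not overlap. At that p 2 of the 26 were lower, 1 of Cdt1 and 1 of Mcm6, and 0 were higher. Of all probe sets 1.27% were lower and 1.56% higher at that p. After Benjamini-Hochberg adjustment in limma 0 of the 26 passed 0.05, with adjusted p between 0.570 and 0.966, and 0 of all 45037 did so. In sorted bulk cells, fewer cycling cells and less RNA per cell cannot be told apart.

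The share of differences below 0 depended on the variability and scaling of the values. Below 0 were 88.5% of the 26 probe sets, beside 69.9% of all probe sets and 50.8% of those whose SD over the 8 arrays lay in the upper part, above the median SD of 0.13. With each array centred on its own median, 23 of the 26 stayed below 0 beside 51.1% of all probe sets, and with quantile normalization 21 of the 26 beside 52.3%. Of the 26 probe sets, 19 had an SD above that median, between 0.30 and 0.98, and 17 of these 19 were below 0. The 5 probe sets lower at an unadjusted p under 0.05 were all among the 19, while 4.13% of all probe sets in the upper part were lower at that threshold. Probe sets of a gene share their transcripts and all 26 share the same 8 mice, so these counts are not independent of each other.

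**Figure D1:**
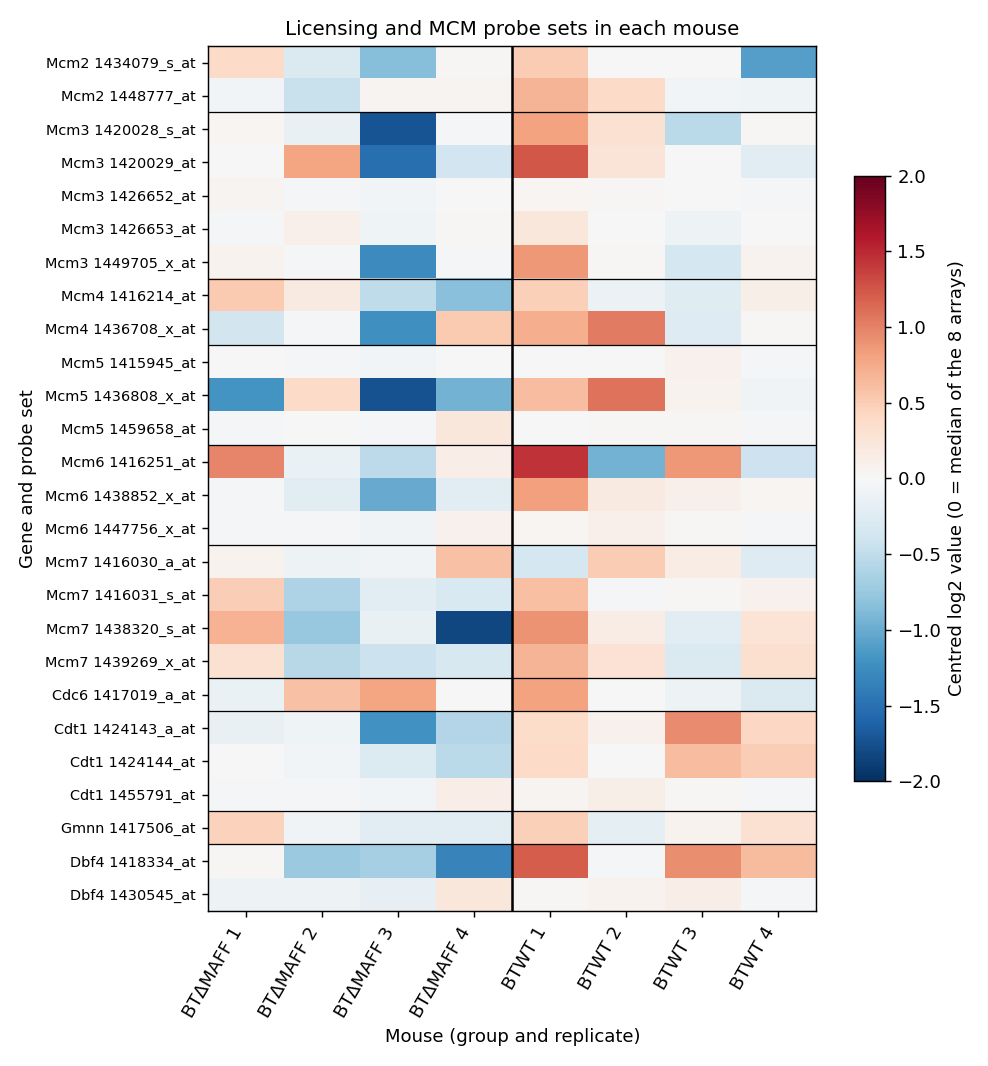
Centred log2 value (color scale, 0 is the median of the 8 arrays) of each of the 26 probe sets, down the page by gene, in each BTΔMAFF mouse (left of the thick line) and each BTWT mouse (right). BTWT 1 held the highest value in 14 probe sets and BTΔMAFF 3 the lowest in 13, and 7 probe sets in 5 genes are nearly blank.

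Single mice contributed unequally. BTWT 1 held the highest of the 8 values in 14 of the 26 probe sets, although it did so in 8.28% of all probe sets. Among the 19 variable probe sets BTWT 1 was highest in 13, beside 14.0% of all probe sets in the upper part of SD. BTΔMAFF 3 held the lowest value in 13 of the 26, close to its 46.8% of all probe sets, and in 8 of the 19 variable ones, beside 18.1%. The medians of the 26 values were 0.001, -0.06, -0.25, and -0.02 in BTΔMAFF mice 1 to 4, and 0.55, 0.05, 0.02, and -0.02 in BTWT mice 1 to 4. BTWT 1 was thus the highest mouse of the 8 by this median and BTΔMAFF 3 the lowest, and the other 6 lay within 0.06 of 0. The count of 5 probe sets lower in BTΔMAFF became 3 without BTΔMAFF 3, 3 without BTWT 1, and 3 without BTWT 2.

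Many genes of this machinery are regulated by E2F factors, which switch on S phase genes and bind sites with a core such as TTTGGCGC or TTTCGCGC. These letters were searched on both strands in RefSeq promoters of GRCm38.p6, from 250 bases before to 50 after the start of each gene, with overlapping matches joined into one. Promoters were matched for 8 of the 10 genes by symbol, and Mcm4 and Gmnn were not in that table. At least 1 match was present in Mcm3, Mcm5, Mcm6, Mcm7, and Cdt1, which makes 5 of the 8 genes, beside 0.929% of the 27025 genes in the table and 0.813% of its 32851 promoters. Mcm7 has 2 promoters in the table, of which 1 holds a match and the other, chr5:138171217-138171516, holds none. The letters are not in this window of Mcm2, Cdc6, or Dbf4. The stretches around the matches are shown 5′ to 3′ on the strand of the gene because these genes form the helicase ring and its loader, with the matched letters in capitals.
Mcm5, chr8:75109316-75109407, plus strand: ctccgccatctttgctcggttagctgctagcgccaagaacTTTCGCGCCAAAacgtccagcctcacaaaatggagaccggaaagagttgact
Mcm6, chr1:128359706-128359855, minus strand: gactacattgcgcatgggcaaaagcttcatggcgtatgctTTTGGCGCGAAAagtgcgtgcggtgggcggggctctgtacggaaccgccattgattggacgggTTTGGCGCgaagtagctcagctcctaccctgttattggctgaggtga
Mcm7, chr5:138171849-138171878, minus strand: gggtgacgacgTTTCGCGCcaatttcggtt
Mcm3, chr1:20820263-20820292, minus strand: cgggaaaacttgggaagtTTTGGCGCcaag
Cdt1, chr8:122568035-122568064, plus strand: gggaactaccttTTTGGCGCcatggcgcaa
In Mcm5 and in the distal match of Mcm6, a core on one strand overlapped a core on the other, GCGCCAAA and GCGCGAAA being the reverse complements of the letters searched. Relative to the start, the matches lay at -153 to -142 in Mcm5 and at -110 to -99 and -47 to -40 in Mcm6. Those past the start lay at 17 to 24 in Mcm7, 39 to 46 in Mcm3, and 33 to 40 in Cdt1. A match describes the letters and shows no binding. Whether differences went with a match was not tested.

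Cdt1 brings the helicase to the origin, and it was the one gene of the set with 2 probe sets lower in BTΔMAFF mice at an unadjusted p under 0.05. Probe set 1424143_a_at, whose suffix marks a match to several transcripts of a gene, had -0.14, -0.09, -1.21, and -0.59 in BTΔMAFF mice 1 to 4, against 0.37, 0.09, 0.95, and 0.41 in BTWT mice 1 to 4. The groups did not overlap, with BTΔMAFF 2 and BTWT 2 closest to each other. The means were -0.51 ± 0.52 in BTΔMAFF and 0.46 ± 0.36 in BTWT (SD, n = 4 each), a difference of -0.96 (standard error 0.29), or 1.95-fold lower in BTΔMAFF, with an unadjusted p of 0.0129 and an adjusted p of 0.720 in limma with Benjamini-Hochberg adjustment (exact permutation p = 0.0286). Non-overlapping groups with BTΔMAFF lower occurred in 2 of the 26 probe sets and in 1.27% of all probe sets, and those with BTΔMAFF higher in 0 of the 26 and in 1.56% of all. These are the same probe sets that reached the smallest exact permutation p, so both counts describe a single result.

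The Cdt1 probe set 1424144_at differed less between strains and spread less between mice. It had 0.01, -0.05, -0.27, and -0.53 in BTΔMAFF mice 1 to 4, against 0.39, -0.01, 0.61, and 0.50 in BTWT mice 1 to 4. BTΔMAFF 1 lay just above BTWT 2, and otherwise all BTΔMAFF mice were below all BTWT mice. The difference was -0.58 (standard error 0.17), or 1.50-fold lower in BTΔMAFF, with an unadjusted p of 0.0108 and an adjusted p of 0.680 in limma with Benjamini-Hochberg adjustment (exact permutation p = 0.0571). The third Cdt1 probe set, 1455791_at, hardly varied. It lay between -0.05 and 0.13 in BTΔMAFF mice and between -0.02 and 0.11 in BTWT mice, with a difference of -0.03 (standard error 0.05, exact permutation p = 0.571).

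Cdc6, the ATPase that loads the ring together with Cdt1, was the one gene whose probe sets were all above 0, and it has a single one. Probe set 1417019_a_at lay between -0.14 and 0.78 in BTΔMAFF mice and between -0.29 and 0.80 in BTWT mice, so that the groups overlapped over nearly their whole range. Its difference was 0.21 (standard error 0.30, exact permutation p = 0.600), and the interval of -0.50 to 0.93 left either direction possible. Without BTΔMAFF 3 the difference was 0.06. Geminin restrains the same step. Its probe set 1417506_at lay between -0.23 and 0.46 in BTΔMAFF mice and between -0.18 and 0.48 in BTWT mice, with a difference of -0.19 (standard error 0.20, exact permutation p = 0.371), which ran from -0.35 without BTΔMAFF 1 to -0.08 without BTWT 1.

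**Figure D2:**
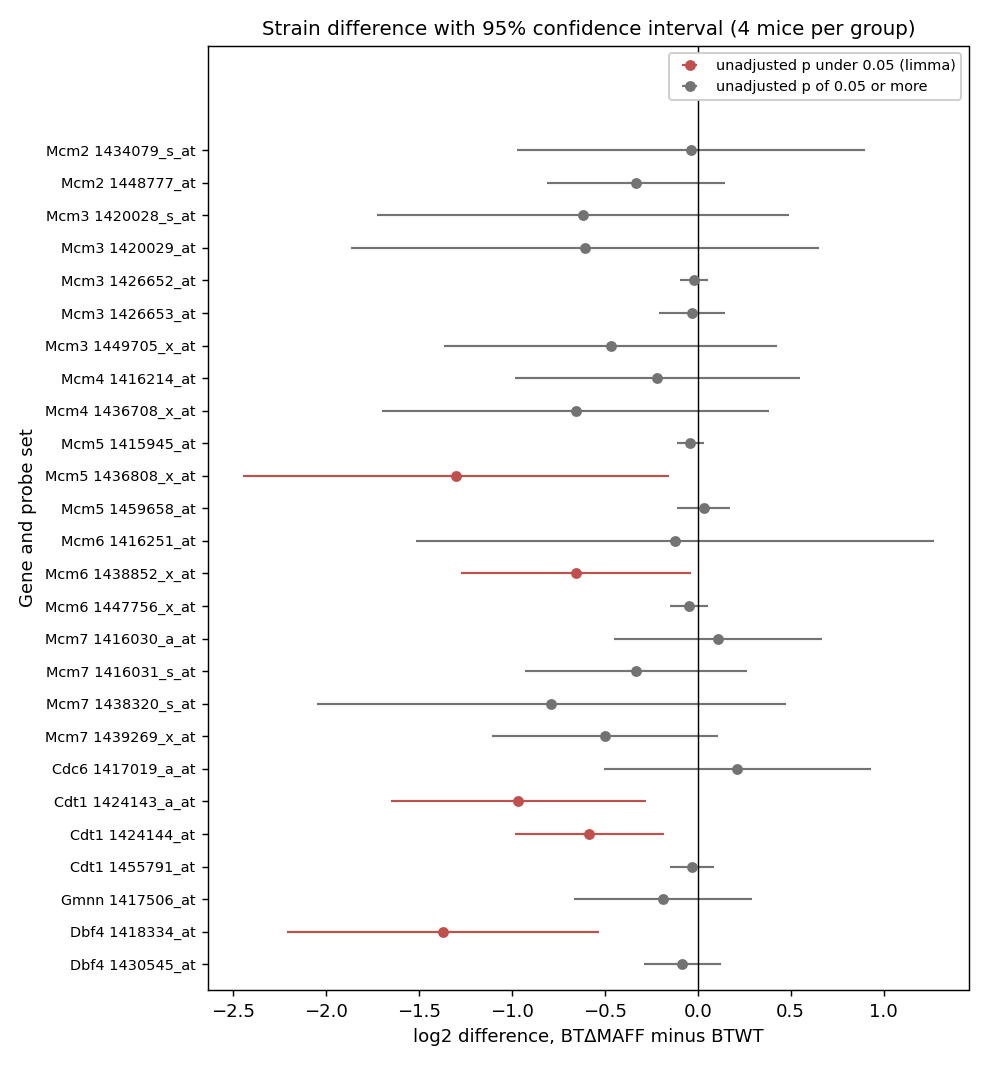
Difference in log2 value (x axis, BTΔMAFF minus BTWT) of each of the 26 probe sets, as a point with its 95% confidence interval from limma (n = 4 mice per group). The 5 red points, in Dbf4, Cdt1, Mcm5, and Mcm6, have intervals wholly below 0, and the 21 gray intervals include 0.

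The 6 ring subunits had 19 probe sets, of which 17 were below 0 and 2 (in Mcm5 and Mcm6) passed an unadjusted p of 0.05, with a median difference of -0.33. Both lower ones end in _x_at, a suffix for probe sets whose probes may cross-hybridize to other transcripts. Mcm5 forms the gate of the ring together with Mcm2, and its probe set 1436808_x_at differed most of the 19. It had -1.20, 0.39, -1.74, and -0.94 in BTΔMAFF mice 1 to 4, against 0.61, 1.09, 0.08, and -0.08 in BTWT mice 1 to 4. BTΔMAFF mice 1, 3, and 4 were below all BTWT mice, and BTΔMAFF 2 lay within the range of BTWT. The means were -0.88 ± 0.90 in BTΔMAFF and 0.43 ± 0.53 in BTWT (SD, n = 4 each). The difference was -1.30 (standard error 0.48), or 2.46-fold lower in BTΔMAFF, with an unadjusted p of 0.0313 and an adjusted p of 0.828 in limma with Benjamini-Hochberg adjustment (exact permutation p = 0.0857). Without any one of BTΔMAFF 1, BTΔMAFF 3, BTΔMAFF 4, BTWT 1, and BTWT 2 the unadjusted p in limma lay between 0.0679 and 0.0792, and with array weights, which gave BTΔMAFF 4 and BTWT 2 little weight, the difference was -0.42.

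The other Mcm5 probe sets did not show this difference. Probe set 1415945_at had -0.01, -0.04, -0.05, and 0.01 in BTΔMAFF mice 1 to 4, against 0.01, 0.01, 0.09, and -0.03 in BTWT mice 1 to 4, a difference of -0.04 (standard error 0.03, exact permutation p = 0.200). Probe set 1459658_at had -0.02, -0.01, -0.02, and 0.23 in BTΔMAFF mice, against 0.01, 0.03, 0.02, and -0.03 in BTWT mice, a difference of 0.03 (standard error 0.06, exact permutation p = 0.914). Both spanned a narrow range in which BTΔMAFF 4 was the highest or next to highest mouse, and the sign of 1459658_at turned to -0.03 with array weights and to -0.02 without BTΔMAFF 4 and BTWT 2.

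Mcm6, another ring subunit, was lower in BTΔMAFF mice at an unadjusted p under 0.05 by 1 of its 3 probe sets. Probe set 1438852_x_at had -0.04, -0.21, -1.01, and -0.22 in BTΔMAFF mice 1 to 4, against 0.82, 0.18, 0.10, and 0.04 in BTWT mice 1 to 4. The groups did not overlap, but the lowest value, of BTΔMAFF 3, and the highest, of BTWT 1, lay far from the rest of their groups. The means were -0.37 ± 0.43 in BTΔMAFF and 0.29 ± 0.36 in BTWT (SD, n = 4 each), and the difference was -0.65 (standard error 0.26), or 1.57-fold lower in BTΔMAFF. Its unadjusted p was 0.0412 and its adjusted p 0.828 in limma with Benjamini-Hochberg adjustment (exact permutation p = 0.0286). The unadjusted p in limma lay between 0.0524 and 0.0907 without any one of BTΔMAFF 2, BTΔMAFF 3, BTΔMAFF 4, BTWT 1, BTWT 2, and BTWT 3. It was 0.0553 in limma with array weights and 0.0602 by the methods' t-test.

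The remaining Mcm6 probe sets gave no such separation. Probe set 1416251_at had 0.98, -0.13, -0.52, and 0.13 in BTΔMAFF mice 1 to 4, against 1.44, -0.95, 0.86, and -0.41 in BTWT mice 1 to 4, a difference of -0.12 (standard error 0.59, exact permutation p = 0.886). BTWT mice spanned the whole range of the BTΔMAFF mice, and leaving out single mice moved the difference between -0.52 and 0.28. Probe set 1447756_x_at lay between -0.07 and 0.09 in BTΔMAFF mice and between -0.02 and 0.09 in BTWT mice, with a difference of -0.05 (standard error 0.04, exact permutation p = 0.286).

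**Figure D3:**
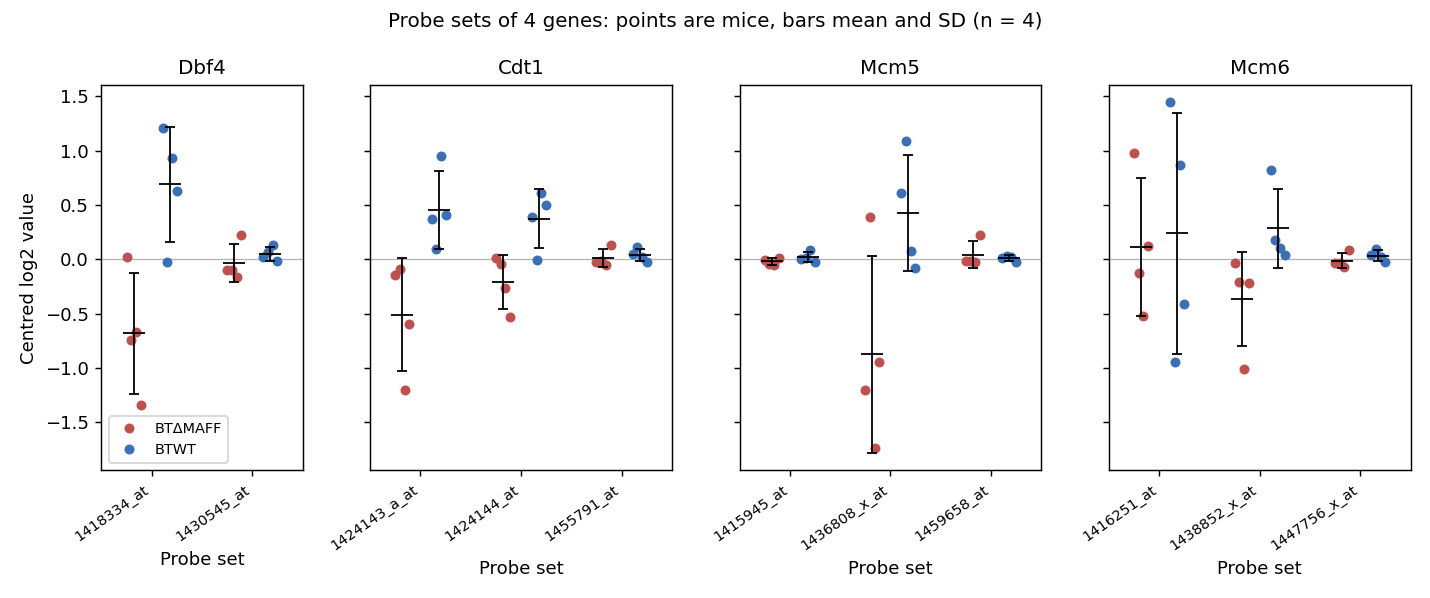
Centred log2 values (y axis) of each probe set of Dbf4, Cdt1, Mcm5, and Mcm6, with 1 point per mouse, BTΔMAFF in red left of BTWT in blue, and bars for mean and SD (n = 4). In Dbf4, Cdt1, Mcm5, and Mcm6 a probe set with a wide spread stands beside one within 0.23 of 0 in every mouse. Dbf4 1418334_at, one with a wide spread, has means of -0.68 in BTΔMAFF and 0.69 in BTWT.

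Mcm7 is the subunit with probe sets of both signs and a wide spread in each. Probe set 1416030_a_at was above 0, with 0.07, -0.10, -0.07, and 0.59 in BTΔMAFF mice 1 to 4, against -0.36, 0.51, 0.14, and -0.25 in BTWT mice 1 to 4 (difference 0.11, standard error 0.24, exact permutation p = 0.629). Its highest values belonged to BTΔMAFF 4 and BTWT 2, the arrays that stood apart. Probe set 1416031_s_at had 0.49, -0.61, -0.22, and -0.30 in BTΔMAFF mice, against 0.60, -0.02, 0.02, and 0.09 in BTWT mice (difference -0.33, standard error 0.25, exact permutation p = 0.286). Probe set 1438320_s_at had 0.70, -0.76, -0.16, and -1.82 in BTΔMAFF mice, against 0.90, 0.16, -0.21, and 0.27 in BTWT mice (difference -0.79, standard error 0.53, exact permutation p = 0.229). Probe set 1439269_x_at had 0.31, -0.56, -0.44, and -0.31 in BTΔMAFF mice, against 0.68, 0.29, -0.29, and 0.32 in BTWT mice (difference -0.50, standard error 0.26, exact permutation p = 0.0857). In these last 3 probe sets BTWT 1 and BTΔMAFF 1 were the highest mice of all 8 or of their group, and the groups overlapped through BTΔMAFF 1 and, in 1438320_s_at, also through BTΔMAFF 3. Without BTΔMAFF 4 the difference of 1438320_s_at was -0.35. Without BTΔMAFF 1 the differences of these 3 probe sets were -0.55, -1.19, and -0.68, all at an unadjusted p under 0.05 in limma, as was 1439269_x_at without BTWT 3, also at -0.68. The suffix _s_at marks probe sets that may match more than one gene.

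Mcm2, Mcm3, and Mcm4 had no probe set past an unadjusted p of 0.05, and all 9 of their probe sets were below 0. For Mcm2, the subunit whose tail also binds histones, 1448777_at lay between -0.44 and 0.05 in BTΔMAFF mice and between -0.08 and 0.68 in BTWT mice (difference -0.33, standard error 0.20, exact permutation p = 0.257), and without BTWT 1 the difference was -0.18. Its 1434079_s_at lay between -0.85 and 0.39 in BTΔMAFF mice and between -1.09 and 0.51 in BTWT mice, with a difference of -0.04 (standard error 0.40) that became 0.02 with quantile normalization. In Mcm4, one of the subunits phosphorylated by Cdc7 with Dbf4, 1436708_x_at had a difference of -0.66 (standard error 0.44, exact permutation p = 0.200), which was -0.34 without BTΔMAFF 3 and -0.25 with array weights. Mcm4 1416214_at had one of -0.22 (standard error 0.32, exact permutation p = 0.629), which turned to 0.20 with array weights.

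Mcm3, which in yeast recruits the ring to Cdc6 at the origin, had the most probe sets of the 10 genes. In 1420028_s_at, 1420029_at, and 1449705_x_at the differences were -0.62, -0.61, and -0.47, with standard errors of 0.47, 0.53, and 0.38 and exact permutation p of 0.343, 0.343, and 0.371. BTΔMAFF 3 was the lowest mouse in all 3, at -1.73, -1.51, and -1.28, and BTWT 1 the highest, at 0.81, 1.24, and 0.86. Without BTΔMAFF 3 the differences were -0.19, -0.19, and -0.15, and with array weights that of 1420029_at turned to 0.10. Probe sets 1426652_at and 1426653_at varied little, with differences of -0.02 and -0.03 that turned to 0.001 with quantile normalization in the first and to 0.07 with array weights in the second.

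Dbf4, the activating subunit of the kinase that fires licensed origins, had the largest difference and the smallest limma p of the 26 probe sets, while by the exact permutation test 1 probe set of Cdt1 and 1 of Mcm6 had a smaller p. Probe set 1418334_at had 0.02, -0.74, -0.67, and -1.34 in BTΔMAFF mice 1 to 4, against 1.21, -0.02, 0.93, and 0.63 in BTWT mice 1 to 4. BTΔMAFF 1 and BTWT 2 met near 0, and all other BTΔMAFF mice were below all BTWT mice. The means were -0.68 ± 0.56 in BTΔMAFF and 0.69 ± 0.53 in BTWT (SD, n = 4 each), a difference of -1.37 (standard error 0.36, 95% confidence interval -2.21 to -0.53), or 2.58-fold lower in BTΔMAFF. The unadjusted p was 0.00622 and the adjusted p 0.570 in limma with Benjamini-Hochberg adjustment (exact permutation p = 0.0571). The difference stayed between -1.61 and -1.15 when single mice were left out. Its other probe set, 1430545_at, had -0.10, -0.09, -0.16, and 0.22 in BTΔMAFF mice, against 0.02, 0.07, 0.13, and -0.02 in BTWT mice, a difference of -0.08 (standard error 0.09, exact permutation p = 0.429), with BTΔMAFF 4 above every other mouse. Dbf4 1418334_at and Mcm5 1436808_x_at are on the list of genes that the study chose on these same arrays, so their direction there is not independent evidence.

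Probe sets of the same gene disagreed in sign in some genes and in size in others. Of the 8 genes with several probe sets, Mcm5 and Mcm7 had both signs, which gave 5 of 28 pairs with opposite signs, beside 32.5% of the 30372 pairs of the 9010 genes on the array with several probe sets. When the difference between both probe sets of a pair was taken within each mouse and compared between strains with limma, 6 of the 28 pairs, or 21.4%, differed at an unadjusted p under 0.05, beside 4.89% of all pairs. None passed Benjamini-Hochberg adjustment over all pairs in limma, where the smallest adjusted p of the 28 was 0.915. The gap was widest in Mcm5, where the difference of 1436808_x_at minus that of 1459658_at was -1.33 (standard error 0.49). It was -1.29 (standard error 0.41) in Dbf4 and -0.93 (standard error 0.30) for Cdt1 1424143_a_at minus 1455791_at. The count was 2 without BTΔMAFF 3, 2 without BTWT 1, 3 without BTΔMAFF 4, and 3 without BTWT 2.

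Each of those 6 pairs set a variable probe set against a nearly constant one. The variable ones were the same 5 probe sets that were lower at an unadjusted p under 0.05 in limma. These pairs therefore largely repeat those differences and are no separate evidence. Of the 26 probe sets, 7 had an SD at or below the median of all probe sets, 2 each in Mcm3 and Mcm5 and 1 each in Mcm6, Cdt1, and Dbf4. Their SDs ran from 0.04 to 0.13, their differences from -0.08 to 0.03, and no mouse was farther than 0.23 from 0 in any of them. Among the 13 pairs of 2 variable probe sets, 0 differed at an unadjusted p under 0.05 in limma, and the smallest unadjusted p was 0.129, between both variable Cdt1 probe sets. Since the deposited values hold no level, whether the 7 constant probe sets lay above background was not tested.

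**Figure D4:**
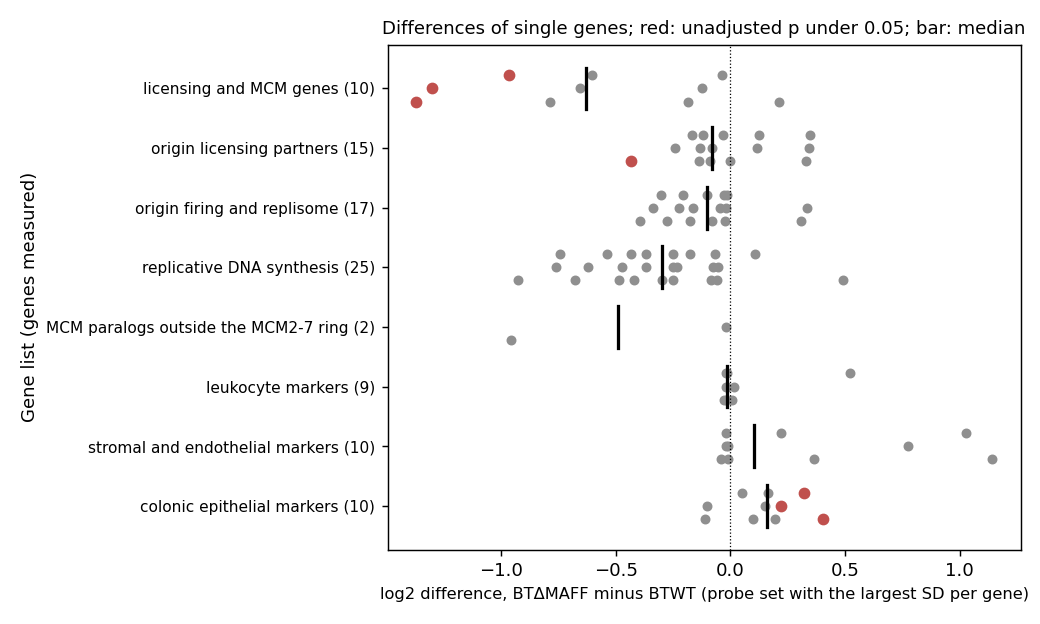
Difference in log2 value (x axis, BTΔMAFF minus BTWT) of each gene of 8 lists, down the page, with 1 point per gene by its probe set with the largest SD, red for an unadjusted p under 0.05 in limma, and a bar for the median of the list. The lowest licensing and MCM gene is Dbf4 at -1.37. The lowest genes of the 4 replication lists are Orc6 at -0.43, Timeless at -0.39, Prim1 at -0.92, and Mcm9 at -0.96. The medians of these lists lie at -0.08 (partners), -0.10 (firing), -0.30 (DNA synthesis), and -0.49 (the 2 MCM paralogs).

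The proteins that work beside this machinery were read from 4 lists, each gene by its probe set with the largest SD. Of their 59 measured genes, 50 were below 0, beside 66.8% of all genes, and the median difference was -0.17 beside -0.02 over all genes. At an unadjusted p under 0.05, 1 gene was lower, or 1.69%, beside 2.35% of all genes, and 0 were higher, beside 3.37%. The lists therefore held no more single genes past that threshold than the background did. The count of lower genes was 4 without BTΔMAFF 1, 3 without BTWT 2, 3 without BTWT 4, and 2 without BTΔMAFF 3, BTΔMAFF 4, or BTWT 1.

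The gene that passed was Orc6, the smallest subunit of the origin recognition complex, among 15 partners of licensing of which 10 were below 0 (median -0.08). Orc6 had -0.29, -0.08, -0.63, and -0.23 in BTΔMAFF mice 1 to 4, against 0.14, 0.13, 0.08, and 0.15 in BTWT mice 1 to 4. All BTΔMAFF mice were below all BTWT mice, and the BTWT mice lay close together. The difference was -0.43 (standard error 0.11), with an unadjusted p of 0.00533 and an adjusted p of 0.550 in limma with Benjamini-Hochberg adjustment (exact permutation p = 0.0286), and Orc6 has 1 probe set. The partners next in p were Orc2, another subunit of that complex, at 0.35 (standard error 0.19), with 2 of its 3 probe sets of that sign, Skp2, which marks Cdt1 for degradation, at -0.13 (standard error 0.11), and Cul4a, a scaffold of the ligase that destroys Cdt1 in S phase, at 0.12 (standard error 0.12). Their exact permutation p were 0.114, 0.286, and 0.343.

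Among 17 genes of origin firing and the replisome 15 were below 0 (median -0.10), and 0 passed an unadjusted p of 0.05 in limma. Those with the smallest p were Timeless, a fork protection factor, at -0.39 (standard error 0.25), Recql4, a helicase needed for initiation, at 0.31 (standard error 0.20), and the partners of the active helicase Cdc45, at -0.08 (standard error 0.06), and Gins3, at -0.05 (standard error 0.04). Timeless was the one of these whose groups did not overlap (exact permutation p = 0.0286), with BTWT 1 at 1.03 and the other 7 mice between -0.36 and 0.03. Of 25 genes of DNA synthesis 23 were below 0 (median -0.30), and again 0 passed in limma. Their smallest p belonged to Rpa1, which coats single-stranded DNA, at -0.54 (standard error 0.24), Tk1, a thymidine salvage enzyme, at -0.74 (standard error 0.33), Pold1, the catalytic subunit of polymerase delta, at 0.49 (standard error 0.26), with 1 of its 2 probe sets of that sign, and Rfc5, a clamp loader subunit, at -0.37 (standard error 0.20). Their exact permutation p were 0.0857, 0.114, 0.143, and 0.143. Of the MCM paralogs outside the ring, which act in homologous recombination, Mcm9 was at -0.96 (standard error 0.76, exact permutation p = 0.286), with 2 of its 4 probe sets of that sign, and Mcm8 at -0.02 (standard error 0.02).

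Markers of other cells were set beside these values. Of the leukocyte list, 9 of 10 genes were measured and 0 passed an unadjusted p of 0.05 in limma, and the mean of the list ran from -0.01 to 0.17 in BTΔMAFF mice and from -0.01 to 0.05 in BTWT mice. Farthest from 0 was Csf1r at 0.52 (standard error 0.39, exact permutation p = 0.0571), with 2 of its 3 probe sets of that sign. It was at 1.75 in BTΔMAFF 3, while 6 of the 9 genes had a difference below 0. Of 10 stromal and endothelial genes 0 passed, but the mean of the list ran from 0.04 to 0.69 in BTΔMAFF mice and from -0.26 to 0.20 in BTWT mice, and 5 of the 10 were below 0. The gene farthest from 0 was Col3a1, a fibrillar collagen, at 1.14 (standard error 0.49, exact permutation p = 0.114), with 1 of its 2 probe sets of that sign. Also above 0 were Dcn at 1.03 (1 of 2 probe sets of that sign), Col1a1 at 0.77 (2 of 2), Col1a2 at 0.36 (2 of 3), and Pecam1 at 0.22 (1 of 1). Des, Pdgfra, Cdh5, Kdr, and Lum lay between -0.04 and -0.01. The ranges of the stromal mean overlapped, and from centred values no marker can be called absent. Of 10 epithelial genes, 3 were higher in BTΔMAFF at an unadjusted p under 0.05 in limma, beside 3.37% of all genes, and 2 were below 0, Cdh1 at -0.11 and Epcam at -0.10. The 3 were Vil1 at 0.40 (exact permutation p = 0.0286), Krt20, of differentiated surface cells, at 0.32 (exact permutation p = 0.0286), and Krt19 at 0.22 (exact permutation p = 0.0857). Lgals4, at 0.05 (standard error 0.02), did not pass in limma. Its groups did not overlap, with BTΔMAFF higher, as in Vil1 and Krt20 (exact permutation p = 0.0286), beside 1.56% of all probe sets. The part of these markers in the licensing and MCM values was not tested.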

How the data were processed

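RNA of sorted colonic epithelial cells from 4 BTΔMAFF- and 4 BTWT-colonized SPF-Abx mice was amplified (NuGen WT Ovation Pico) and hybridized to Affymetrix mouse arrays. The authors deposited log2 values with the median of the 8 arrays subtracted for each probe set. GeneSpring and Affymetrix Expression Console are named as their software, while the sources used here do not give the summarization, the background correction, or the normalization. Such values hold no absolute level or detection call.

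After 64 control probe sets were left out, lmFit and eBayes of limma 3.58.1 (R 4.3.3) were run on 45037 probe sets, BTΔMAFF minus BTWT with no covariate and with Benjamini-Hochberg adjustment over all of them. Groups came from the sample labels. Genes were named from the array annotation, in which 932 probe sets have several symbols and 9160 none. The members and gene lists were chosen with earlier results of these data known. Mouse-by-mouse values are given for genes with a probe set at an unadjusted p under 0.05 or with probe sets of both signs, and up to 4 genes of smallest p are named per list of the pathway. Pairs of probe sets of a gene were compared by limma on within-mouse differences. Alternatives were the replicate number as a block, quantile normalization, median centring, array weights, a robust prior, the methods' t-test, an SD filter, the mean over the probe sets of a gene for the lists, and leaving out single arrays or both that stood apart. Promoters were from RefSeq (GRCm38.p6), and the arrays carry no build. A two-sided exact permutation test of single probe sets was added after the data were seen. The fit was tested on simulated data. The number of arrays limits the precision.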

Additional observations from a re-analysis of the deposited data

Results flagged for a closer look

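Within the 52 groups of 4 values, 1 for each strain and probe set, 3 held a value whose gap to its nearest neighbour exceeded Dixon's 95% critical share of the range of the group. Chance alone marks some groups in this way, about 1 in 20 of them. In Mcm3 1420028_s_at the value of BTΔMAFF 3 was -1.73 and the nearest BTΔMAFF mouse was at -0.15. In Mcm3 1449705_x_at BTΔMAFF 3 was at -1.28 and the nearest BTΔMAFF mouse at -0.04. In Mcm5 1459658_at BTΔMAFF 4, one of the arrays that stood apart, was at 0.23 and the nearest BTΔMAFF mouse at -0.01.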

How the results depend on the processing

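The count of 5 licensing and MCM probe sets lower in BTΔMAFF at an unadjusted p under 0.05 was 4 to 7 under the limma alternatives and the methods' t-test, 2 under the exact permutation test added after seeing the data, and 3 to 7 without single arrays, and 0 were higher in any of them. The background moved as well. With array weights 6 of the 26 were lower, while 11533 of all 45037 probe sets passed in either direction. Without BTΔMAFF 4 the count was 5, while 4497 of all probe sets passed, beside 2295 in the main fit. The median difference of the 26, at -0.27, ran from -0.43 to -0.13 without single arrays and was -0.50 with the SD filter, which removed 7 of the 26. Over 435 values of single probe sets under the alternatives, 380 kept their direction and side of the threshold, 20 lost and 13 gained an unadjusted p under 0.05, and 22 values in 8 probe sets changed sign. Of the 20 that lost it, 9 were of Mcm6 1438852_x_at and 8 of Mcm5 1436808_x_at, each out of 17 alternatives. Dbf4 1418334_at and Cdt1 1424144_at passed in all but the exact test. Signs changed with quantile normalization in Mcm3 1426652_at (0.000954) and Mcm2 1434079_s_at (0.0228), with array weights in Mcm7 1416030_a_at (-0.0595), Mcm4 1416214_at (0.20), Mcm3 1420029_at (0.10), Mcm3 1426653_at (0.0731), and Mcm5 1459658_at (-0.0271), and in this last one also without both arrays that stood apart (-0.0224). Without single arrays the differences ran from -0.35 to 0.19 in Mcm2 1434079_s_at, -0.0742 to 0.0349 in Mcm3 1426653_at, -0.45 to 0.00973 in Mcm4 1416214_at, -0.0288 to 0.0545 in Mcm5 1459658_at, -0.52 to 0.28 in Mcm6 1416251_at, and -0.0450 to 0.28 in Mcm7 1416030_a_at. Of all probe sets, 0 passed adjustment in limma, beside 1 with median-centred arrays, 510 with array weights, 25 with the SD filter, 2 without both arrays that stood apart, and 0 to 6 without single arrays. At an unadjusted p under 0.05 there were 2295, beside 11533 with array weights, 1276 by the exact test, 4745 without both arrays, and 1774 to 4497 without single arrays. The weights ran from 0.120 for BTΔMAFF 4 to 4.68 for BTWT 3. The 6 pairs of probe sets became 2 to 5 without single arrays, and the list genes lower in BTΔMAFF, 1 in all, became 1 to 4 and by the exact test 2, while those higher, 0 in all, became 0 to 1. The labels share replicate numbers. The deviations of same-numbered mice from their group means had correlations of 0.39, -0.04, 0.03, and -0.27. Those of differently numbered mice ran from -0.39 to 0.46. Whether the numbers pair the mice cannot be told from these values. With the replicate block 7 licensing and MCM probe sets were lower (median -0.27), 6 pairs differed, 2 list genes were lower, and Cdt1 1424143_a_at no longer passed, with an unadjusted limma p of 0.0541. The cause of these changes was not tested.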
